A study of Mus musculus with 9 samples.

Results

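The thin filament of the muscle sarcomere was followed through 10 genes: the sarcomeric actins Acta1 and Actc1, the tropomyosins Tpm1, Tpm2, Tpm3 and Tpm4, the leiomodins Lmod2 and Lmod3, and the tropomodulins Tmod1 and Tmod4. The genes are a list of names, drawn up with earlier results of these data known, and are 10 of the 35675 genes with a transcript in the tables. All 10 had counts and passed the filter on low counts. The 4 tropomyosin genes were also followed transcript by transcript, through 45 annotated models. Polyadenylated RNA was sequenced from 9 libraries of mouse embryonic fibroblasts (MEFs), with 3 libraries in each of 3 groups. Every library, controls included, carried the Dmdmdx genotype, a dystrophin mutation used as a mouse model of Duchenne muscular dystrophy, so no wild-type cells enter these comparisons. The MEF group received no treatment, the MyoD group received MyoD, the transcription factor that can turn fibroblasts towards muscle, and the F/R/C group received MyoD together with a small-molecule treatment that the labels name by the letters F/R/C. The comparisons ask how far the transcripts of the thin filament changed with MyoD, and with the small molecules on top of MyoD. The labels give neither the time of treatment nor the vector, and separate cultures or embryos are not named behind the replicates. Each p-value therefore sets a difference between groups against the spread of these libraries only, which may be a technical spread.

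The thin filament is a helical polymer of actin along which tropomyosin dimers lie end to end and, with troponin, gate the access of myosin. Striated muscle uses its own actins: Acta1 is the main actin of adult skeletal muscle, and Actc1 is the cardiac actin that developing skeletal muscle also makes. Leiomodins nucleate actin filaments and help them lengthen at the pointed end, and tropomodulins cap that end. Tropomyosin genes make many proteins each, through alternative promoters, a choice between mutually exclusive exons in the middle of the gene and alternative last coding exons, so that muscle and non-muscle cells can read different proteins from one gene.

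The deposited libraries held 21112071 to 24291056 estimated counts each. Levels are given as CPM, for which counts were scaled to the library total multiplied by its TMM factor, the scaling of the main test. A count of 0 allows up to 3 counts, or 0.113 to 0.144 CPM. MEF replicate 3 stood apart from the other untreated libraries. The summed level of 6 skeletal muscle markers (Myog, Ckm, Myh3, Tnnt3, Ryr1 and Cacna1s) was 3.49 and 1.45 CPM in MEF replicates 1 and 2 but 189 CPM in MEF replicate 3, against 249.5 to 930 CPM with MyoD and 11311 to 15550 CPM with F/R/C. Myod1 itself ranged over 0.403 to 5.998 CPM in MEF, 7.21 to 18.95 CPM in MyoD and 269 to 330 CPM in F/R/C, and the sources used here do not say whether RNA from the added MyoD is counted in it. The 8 fibroblast markers were present in every library, and their summed level ran from 13529 to 49632 CPM in MEF, from 6306 to 16871 CPM in MyoD and from 3624 to 5119 CPM in F/R/C. The collagens Col1a1 and Col1a2 made up 56.2% to 88.3% of that sum, and in F/R/C against MEF edgeR called 3 of the 8 lower, these collagens and Fbn1, and none higher. Against MyoD it called Col1a2 lower; Thy1 and Dcn, at log2 fold changes of -0.11 and 0.15 from MEF, and Pdgfra, Lum and Postn were not called in either comparison. The 7 smooth muscle markers overlapped between the groups (316 to 894, 134 to 533 and 137 to 461 CPM), and none of the 6 tested was called. The 8 heart markers summed to at most 53.3 CPM in any library, mostly Hand2 and Tbx5 in MEF and MyoD, and Nppa, Myl7 and Nkx2-5 were at 0 in every MEF and MyoD library. In F/R/C, Myh6, a myosin heavy chain of the heart, reached 2.54 to 5.42 CPM against at most 0.185 CPM elsewhere, and Nppb, a natriuretic peptide, 2.43 to 5.20 CPM against at most 0.529 CPM. Both were called higher than in MEF (log2 fold changes of 6.05 and 5.32, edgeR adjusted p = 0.00364 and 0.00777) and than in MyoD (7.75 and 4.14, adjusted p = 0.00313 and 0.0177), while Hand2 was called lower in both comparisons. The part that these differences in cell markers play in the results below was not tested, and in such bulk RNA fewer cells of a type and less RNA per cell cannot be told apart.

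In the F/R/C libraries, 8 of the 10 genes stood above every MEF library and every MyoD library, and Tpm3 and Tpm4 stood below them all. With edgeR's quasi-likelihood test at an adjusted p under 0.05, 7 of the 10 genes were higher and 2 were lower in F/R/C than in MEF, where the test called 37.6% of the 15714 genes tested, 19.5% higher and 18.1% lower. Against MyoD, 7 were higher and 1 was lower in F/R/C, where 33.9% of all genes were called, 17.8% higher and 16.1% lower. With total counts as the only scaling, 42.4% of the calls against MyoD were higher, where the main scaling gave 52.5%, and the median of all genes was -0.20; no member changed its direction there. The groups did not overlap for 53.2% of all genes in the first of these comparisons (27.1% higher, 26.0% lower) and for 49.8% in the second (26.6% higher, 23.2% lower). Between MyoD and MEF, 5 of the 10 genes did not overlap and were higher with MyoD (Acta1, Lmod2, Lmod3, Tmod1 and Tmod4), and the other 5 overlapped. Of all genes, 7.52% did not overlap there, 4.4% higher and 3.11% lower. Compared within the pairs of libraries with the same replicate number, Actc1 and Tpm2 were also higher with MyoD in all 3 pairs, Tpm1 and Tpm4 were lower in all 3, and Tpm3 was mixed. That makes 7 of the 10 genes higher in every pair and 2 lower. Of all genes, 17.4% were higher in every pair and 19.4% lower. With the replicate number as a block in the fit of all 9 libraries, edgeR called only Tmod1 of the 10. That block gave the F/R/C libraries the same replicate effects, and the pairs of MEF and MyoD were not fitted alone. In the main fit, which has no block, none of the 10 was called for MyoD against MEF. There edgeR called 0 genes of the 15714 (0.0%), with 732 genes (4.66%) and 4 of the members at an unadjusted p under 0.05. DESeq2 called 171 genes (1.09%), 1 of them a member, Tmod1. The median log2 fold change over the 10 genes was 1.42 for MyoD against MEF, 6.41 for F/R/C against MEF and 3.55 for F/R/C against MyoD, beside medians of -0.01, -0.04 and -0.02 over all genes tested. Any 2 of the 3 comparisons share 1 group of libraries.

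**Figure D1:**
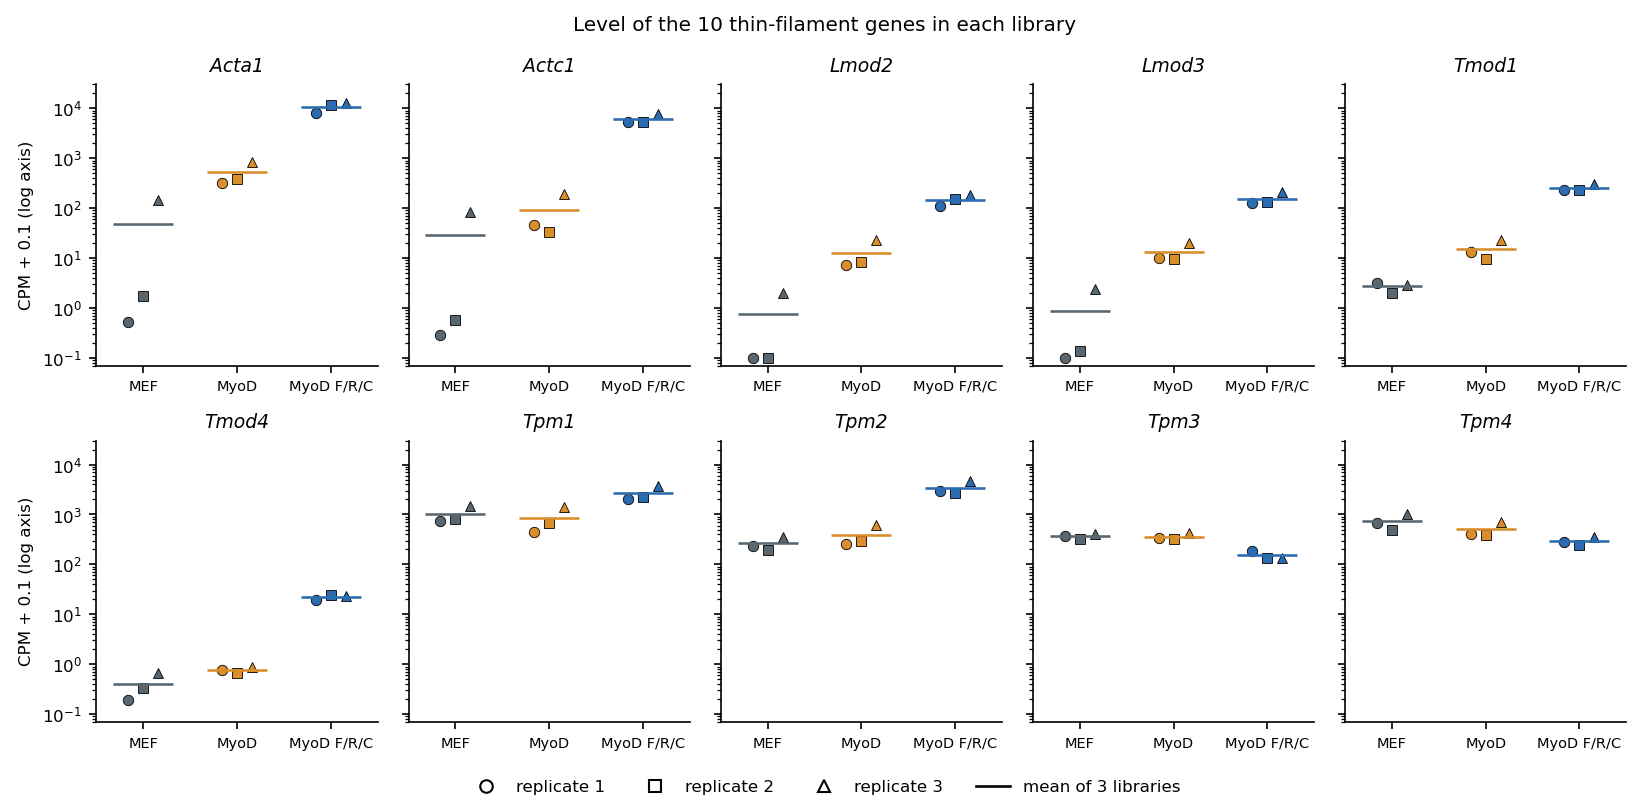
Level of the 10 genes in each library, as CPM plus 0.1 on a log axis, by group; symbols mark the replicate and the bar is the mean of 3 libraries. The F/R/C points lie above all others for 8 genes and below them for Tpm3 and Tpm4, and MEF replicate 3 lies far above the other MEF libraries for Acta1, Actc1, Lmod2 and Lmod3.

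The sarcomeric actins were nearly silent in MEF replicates 1 and 2 and became the main actins of the F/R/C libraries. Acta1 (ENSMUSG00000031972, GRCm38 chr8:123891769-123894751, minus strand) was at 0.419, 1.65 and 143 CPM in MEF, 324, 377 and 856 CPM in MyoD, and 8008, 11502 and 12530 CPM in F/R/C. The 3 groups did not overlap, but MEF replicate 3 held 143 CPM where the other MEF libraries held at most 1.65. F/R/C exceeded MEF by a log2 fold change of 7.78 ± 2.04 (SE; edgeR adjusted p = 0.0168), and without MEF replicate 3 by 13.26 (adjusted p = 0.000220). F/R/C against MyoD gave 4.36 ± 1.74 and was not called (edgeR adjusted p = 0.0824), but was with DESeq2 (4.37, adjusted p = 0.00321) and in a fit of only these 2 groups (4.29, edgeR adjusted p = 0.00199). MyoD against MEF gave 3.42 ± 1.66 (edgeR adjusted p = 1.0), and without MEF replicate 3 it was called, at 8.97 (adjusted p = 0.00366).

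Actc1 (ENSMUSG00000068614, chr2:114047282-114053548, minus strand) was at 0.186, 0.483 and 85.2 CPM in MEF, 46.1, 33.3 and 194 CPM in MyoD, and 5437, 5270 and 7848 CPM in F/R/C. MEF replicate 3 lay above MyoD replicates 1 and 2, so those groups overlapped, although Actc1 was higher with MyoD within each same-numbered pair, and F/R/C lay above every other library. The log2 fold change was 7.76 ± 2.19 for F/R/C against MEF (edgeR adjusted p = 0.0231), which became 7.55 (adjusted p = 0.0538) without F/R/C replicate 3 and 14.08 (adjusted p = 0.000356) without MEF replicate 3. Against MyoD it was 6.09 ± 2.03 (edgeR adjusted p = 0.0470), a call that was lost when any 1 of the 6 libraries was left out, with changes of 5.65 to 7.28 and adjusted p from 0.0583 to 0.136, and with counts rescaled from TPM (6.03, adjusted p = 0.0512). DESeq2 gave Actc1 no p-value in any comparison. MyoD against MEF gave 1.67 ± 1.68 (edgeR adjusted p = 1.0), and without MEF replicate 3 it was called, at 8.06 (adjusted p = 0.0122).

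Acta1 and Actc1 code for nearly the same protein, and the first 60 coding bases of their messages, printed to show how such close genes are told apart, are identical at 51 positions (85.0%). Capitals mark the positions that differ, and both are read 5′ to 3′ on GRCm38.

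Acta1-201, chr8:123893638-123893697, minus strand: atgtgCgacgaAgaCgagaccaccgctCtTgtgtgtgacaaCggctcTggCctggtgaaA
Actc1-201, chr2:114051972-114052031, minus strand: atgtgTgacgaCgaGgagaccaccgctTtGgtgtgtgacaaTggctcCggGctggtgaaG

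Over the whole coding sequence the pair is identical at 976 of 1131 positions (86.3%), and the longest identical run is 29 bases. Per length, on the transcript scale TPM, Acta1 was above Actc1 in every library: 1.97 to 4.10 times in MEF, 5.13 to 13.1 times in MyoD and 1.77 to 2.66 times in F/R/C. The MyoD libraries thus had the highest ratio, above every MEF and F/R/C library, and an exact two-sided permutation test of 3 libraries against 3 cannot go below p = 0.1, the value it gave for both differences. In MEF replicates 1 and 2 the ratio rests on few estimated counts, 9 against 4 and 41 against 12. Acta1 and Actc1 together made up 0.0120%, 0.0430% and 3.04% of the TPM of the 6 actin genes in MEF, 10.95%, 8.75% and 14.3% in MyoD, and 86.0%, 90.9% and 89.2% in F/R/C. Actb and Actg1, the cytoplasmic actins of all cells, fell: Actb by 1.47 on the log2 scale from MEF (edgeR adjusted p = 0.00585) and by 1.15 from MyoD (adjusted p = 0.0182), and Actg1 by 2.10 (adjusted p = 0.00177) and 1.88 (adjusted p = 0.00356). Actb made up 44.7% to 50.2% of actin TPM in MEF and 4.34% to 6.05% in F/R/C. The smooth muscle actins were not called, with log2 fold changes of F/R/C against MEF of -0.01 for Acta2 and 3.00 for Actg2 (adjusted p = 0.0847). The summed TPM of the 6 actins was 9029 ± 2138 (MEF), 8206 ± 2719 (MyoD) and 23536 ± 1694 (F/R/C; SD, n = 3 each).

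The promoters of both sarcomeric actins hold a CArG box, the site that serum response factor is known to bind, and these 2 windows are shown because both genes were far higher in F/R/C than in any other library. Each is the 250 bases before the RefSeq start (GRCm38.p6, minus strand), read 5′ to 3′, with the CArG box in capitals.

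Acta1 promoter, chr8:123894776-123895025, minus strand: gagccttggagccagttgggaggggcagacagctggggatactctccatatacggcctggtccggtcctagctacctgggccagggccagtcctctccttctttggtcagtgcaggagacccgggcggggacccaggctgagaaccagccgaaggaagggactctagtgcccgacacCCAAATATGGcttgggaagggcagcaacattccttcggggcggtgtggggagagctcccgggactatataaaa
Actc1 promoter, chr2:114052876-114053125, minus strand: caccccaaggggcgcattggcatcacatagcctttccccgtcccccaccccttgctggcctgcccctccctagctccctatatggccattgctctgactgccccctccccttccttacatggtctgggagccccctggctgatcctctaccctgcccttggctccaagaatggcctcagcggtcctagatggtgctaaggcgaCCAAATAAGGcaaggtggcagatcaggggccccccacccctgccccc

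The match lies 73 to 64 bases before the start in Acta1 and 47 to 38 bases before it in Actc1. On both strands, a CArG box was found in 482 of 32851 RefSeq promoter windows of this length (1.47%), and in none of the other 8 windows of the members (9 of the 10 genes have an entry, and Tpm3 has 2 windows). The motif CAGCTG, a form of the E-box CANNTG that MyoD can bind, was in 1 window each of Acta1, Tpm2 and Tpm3, and in 13.0% of all windows. No window of the members held the MEF2 motif, which 2.92% of all windows hold. These matches describe letters in a short window and show nothing of binding. Serum response factor itself was not called, at a log2 fold change of 0.53 for F/R/C against MEF (edgeR adjusted p = 0.232), while Abra, an actin-binding activator of the same pathway, rose by 8.06 (adjusted p = 0.00118) from MEF and by 4.25 (adjusted p = 0.00832) from MyoD, and Mrtfa, a coactivator of serum response factor, fell by 1.03 (adjusted p = 0.0170) and 0.79 (adjusted p = 0.0489). Of this list of 5 genes, Mrtfb was not called and Myocd was below the filter on low counts.

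Among the tropomyosins, Tpm2 rose and Tpm3 fell in F/R/C against both other groups, Tpm4 fell against MEF, and Tpm1 rose against MyoD. Tpm2 (beta-tropomyosin, ENSMUSG00000028464, chr4:43514711-43523765, minus strand) was at 239, 197 and 352 CPM in MEF, 260, 299 and 604 CPM in MyoD, and 2892, 2711 and 4772 CPM in F/R/C. MEF and MyoD overlapped, and F/R/C lay above both. The log2 fold change was 3.72 ± 0.45 against MEF (edgeR adjusted p = 0.000735) and 3.16 ± 0.44 against MyoD (adjusted p = 0.00176). MyoD against MEF gave 0.56 ± 0.41 (edgeR adjusted p = 1.0). Tpm1 (alpha-tropomyosin, ENSMUSG00000032366, chr9:67022590-67049406, minus strand) was at 747, 802 and 1473 CPM in MEF, 445, 663 and 1424 CPM in MyoD, and 2041, 2225 and 3746 CPM in F/R/C. The third libraries of MEF and MyoD were the highest of their groups, and F/R/C did not overlap with either group. F/R/C against MyoD gave 1.66 ± 0.50 (edgeR adjusted p = 0.0314), which was lost without MyoD replicate 1 (1.35, adjusted p = 0.0907), MyoD replicate 2 (1.48, 0.113), F/R/C replicate 2 (1.78, 0.0557) or F/R/C replicate 3 (1.34, 0.102). F/R/C against MEF gave 1.41 ± 0.49 and was not called (edgeR adjusted p = 0.0512), but was with the replicate number as a block (1.43, adjusted p = 0.00324), without MEF replicate 3 (1.73, adjusted p = 0.0369), with DESeq2 (1.44, 0.0127), with total counts (1.31, 0.0470), with counts rescaled from TPM (1.88, 0.0181) and in a fit of only these 2 groups (1.43, 0.0346).

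Tpm3 (ENSMUSG00000027940, chr3:90072649-90100902, plus strand), whose products include slow muscle tropomyosin and short cytoskeletal forms, was at 374, 328 and 412 CPM in MEF, 333, 325 and 421 CPM in MyoD, and 184, 132 and 136 CPM in F/R/C. It fell by 1.30 ± 0.21 on the log2 scale from MEF (edgeR adjusted p = 0.00242) and by 1.25 ± 0.21 from MyoD (adjusted p = 0.00359). Tpm4 (ENSMUSG00000031799, chr8:72134975-72153142, plus strand), a cytoskeletal tropomyosin, was at 678, 490 and 1010 CPM in MEF, 408, 389 and 712 CPM in MyoD, and 280, 244 and 350 CPM in F/R/C. For both genes F/R/C lay below every other library, and MEF and MyoD overlapped. Tpm4 fell by 1.32 ± 0.35 from MEF (edgeR adjusted p = 0.0171), a call lost without F/R/C replicate 1 (-1.29, 0.0546) or F/R/C replicate 2 (-1.21, 0.0625). The difference of Tpm4 from MyoD was -0.79 ± 0.34 and was not called (edgeR adjusted p = 0.106), but was with total counts as the only scaling (-0.96, adjusted p = 0.0365). Per length, the summed TPM of the 4 tropomyosin genes was 2662 ± 836 (MEF), 2531 ± 1030 (MyoD) and 9745 ± 1425 (F/R/C; SD, n = 3 each). Tpm2 took 17.7% to 19.5% of that sum in MEF, 26.6% to 28.6% in MyoD and 59.2% to 61.4% in F/R/C, with no overlap between any of the groups. Tpm1 stayed between 33.9% and 49.0% in all 9 libraries, and Tpm3 and Tpm4 together made up at most 4.29% of the sum in any F/R/C library. In estimated counts Tpm2 took 51.0% to 53.6% of the 4 genes in F/R/C. Much of its TPM there lay in short models without a whole coding sequence. In models with a whole coding sequence, Tpm2 held 2627, 2355 and 3262 TPM in F/R/C, below the 2985, 3213 and 4295 TPM of Tpm1.

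**Figure D2:**
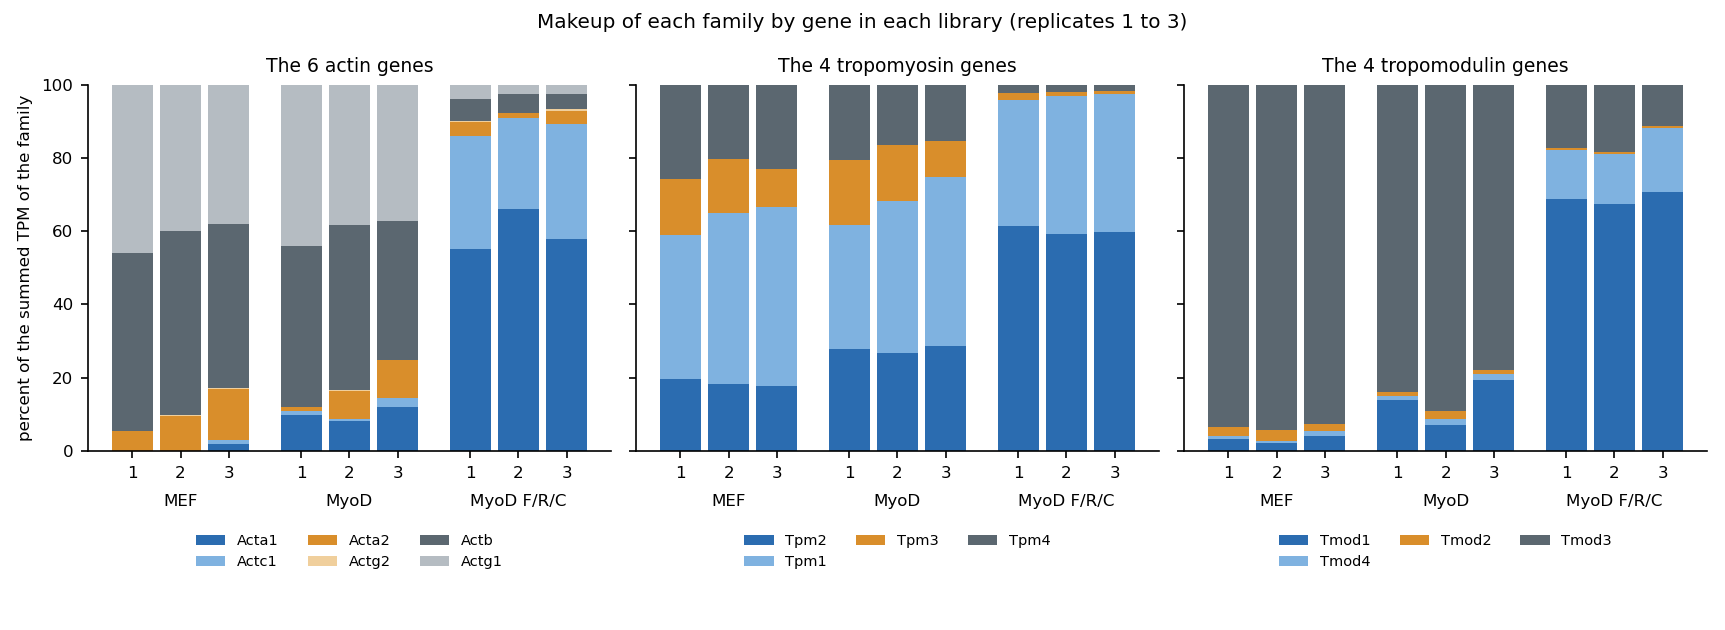
Makeup of the actin, tropomodulin and tropomyosin families in each library, as percent of the summed TPM of the family's genes; each bar is 1 library and each colour 1 gene. In the F/R/C libraries Acta1 and Actc1 fill 86.0% to 90.9% of actin, Tpm2 fills 59.2% to 61.4% of tropomyosin, and Tmod1 fills 67.5% to 70.5% of tropomodulin. The Tpm2 share includes short models without a whole coding sequence.

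Shares of exons were taken among each gene's models with a whole coding sequence. The exons of Tpm1, Tpm2 and Tpm3 that striated muscle uses held a larger share in every F/R/C library than in any other library. In Tpm3, some of these exons lay more in a short model there than in the long muscle form. The last coding exon comes in versions that exclude each other: an upstream version, which striated muscle tropomyosin carries, and the version farthest downstream, used in fibroblasts and smooth muscle. These sequences are shown because the share of each is what the following values measure. Each is the coding part of the exon from the deposited build, GRCm38, read 5′ to 3′, and capitals mark the positions at which the versions of the same gene differ.

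Tpm1 upstream end, chr9:67029664-67029742, minus strand: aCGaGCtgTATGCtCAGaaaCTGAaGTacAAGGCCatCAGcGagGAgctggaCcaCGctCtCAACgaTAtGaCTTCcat
Tpm1 downstream end, chr9:67023362-67023441, minus strand: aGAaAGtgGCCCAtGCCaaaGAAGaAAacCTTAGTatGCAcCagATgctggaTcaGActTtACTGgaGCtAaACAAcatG
Tpm2 upstream end, chr4:43515924-43516003, minus strand: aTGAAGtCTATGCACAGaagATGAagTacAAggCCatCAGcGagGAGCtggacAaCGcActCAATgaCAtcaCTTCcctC
Tpm2 downstream end, chr4:43514782-43514861, minus strand: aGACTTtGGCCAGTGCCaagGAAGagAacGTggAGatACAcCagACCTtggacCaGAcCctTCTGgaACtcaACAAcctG
Tpm3 upstream end, chr3:90091013-90091091, plus strand: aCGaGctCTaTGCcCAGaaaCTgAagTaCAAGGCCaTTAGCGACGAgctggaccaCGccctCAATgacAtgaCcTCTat
Tpm3 downstream end, chr3:90099528-90099607, plus strand: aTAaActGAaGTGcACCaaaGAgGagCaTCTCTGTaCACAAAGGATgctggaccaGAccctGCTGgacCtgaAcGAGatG

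Compared position by position with no gaps, the versions within a gene are identical at 34 of 79 positions in Tpm1 (43.0%), 33 of 80 in Tpm2 (41.2%) and 36 of 79 in Tpm3 (45.6%). The upstream ends of different genes are closer: 83.5% identical between Tpm1 and Tpm2, 88.6% between Tpm1 and Tpm3, and 82.3% between Tpm2 and Tpm3. The downstream ends of the 3 genes are identical at 48 to 57 of 80 positions. The middle of each gene holds a second such pair, the sixth coding exon in its upstream and downstream versions, shown here for Tpm2, where the downstream version is the skeletal muscle one.

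Tpm2 upstream sixth exon, chr4:43519003-43519078, minus strand: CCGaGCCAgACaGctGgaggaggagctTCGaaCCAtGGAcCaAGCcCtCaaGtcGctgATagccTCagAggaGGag
Tpm2 downstream sixth exon, chr4:43518644-43518719, minus strand: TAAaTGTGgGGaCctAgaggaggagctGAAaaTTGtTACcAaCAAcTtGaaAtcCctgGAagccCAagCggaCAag

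The pair is identical at 41 of 76 positions (53.9%). Shares below are percent of the TPM of the gene's models that hold a whole coding sequence.

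In Tpm1, the upstream end held 3.04%, 5.46% and 6.93% in MEF, 19.98%, 16.8% and 19.3% in MyoD, and 89.2%, 92.2% and 92.2% in F/R/C. The downstream end held 86.0% to 90.4% in MEF, 72.1% to 72.5% in MyoD and 4.29% to 6.51% in F/R/C. No groups overlapped in either share, MEF replicate 3 lay below every MyoD library in the first, and each exact two-sided permutation test gave p = 0.1, the smallest possible. The upstream first exon, which starts the long tropomyosins, held 73.8% to 84.5% in MEF, 62.1% to 86.8% in MyoD and 99.2% to 99.5% in F/R/C, so MEF and MyoD overlapped in this choice (exact p = 0.8). The second exon's upstream version is the smooth muscle choice, and its share was taken among only the 9 models with a single second exon. It took 8.29%, 16.8% and 23.5% in MEF, 3.48%, 19.1% and 18.8% in MyoD, and 0.920%, 0.613% and 0.986% in F/R/C. In the sixth exon, the downstream version held 67.1% to 72.6% in MEF, 73.3% to 80.9% in MyoD and 92.8% to 93.8% in F/R/C.

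The upstream end of Tpm2 took 8.44%, 7.97% and 9.48% in MEF, 26.5%, 28.7% and 24.9% in MyoD, and 62.2%, 61.0% and 62.3% in F/R/C, again with no overlap (exact p = 0.1 for each pair of groups). The downstream sixth exon of Tpm2 had the same shares in every library, since the whole models that carried counts pair the 2 choices. In Tpm3, the upstream end held 5.07%, 6.82% and 4.88% in MEF, 9.37%, 11.4% and 13.2% in MyoD, and 55.2%, 45.9% and 53.2% in F/R/C. The upstream first exon of Tpm3, which starts its long muscle form, held at most 0.268% in MEF, 3.94% to 10.7% in MyoD and 19.1% to 36.0% in F/R/C. These Tpm3 shares did not overlap between any of the groups either, in a gene whose total fell. The upstream end of Tpm3 has 2 models behind it, the short Tpm3-202 (248 residues) and the long Tpm3-205. In each F/R/C library Tpm3-202 held more of that end than Tpm3-205, so most of this share was not the long muscle form. Tpm3-202 also holds the downstream end within an exon of 1369 bases (chr3:90099528-90100896), so reads from there fit models of both ends. Tpm1-203 and Tpm1-205 likewise hold another version of the Tpm1 end, within an exon of 276 bases (chr9:67027892-67028167), but not the downstream end printed above. So for the ends of all 3 genes the MyoD libraries lay between the other groups, while the totals of these genes were not called between MyoD and MEF. The shares of Tpm2 leave out much of the gene in F/R/C: models with a whole coding sequence held 97.6% to 97.8% of its TPM in MEF, 81.3% to 81.6% in MyoD and 45.7% to 48.1% in F/R/C.

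**Figure D3:**
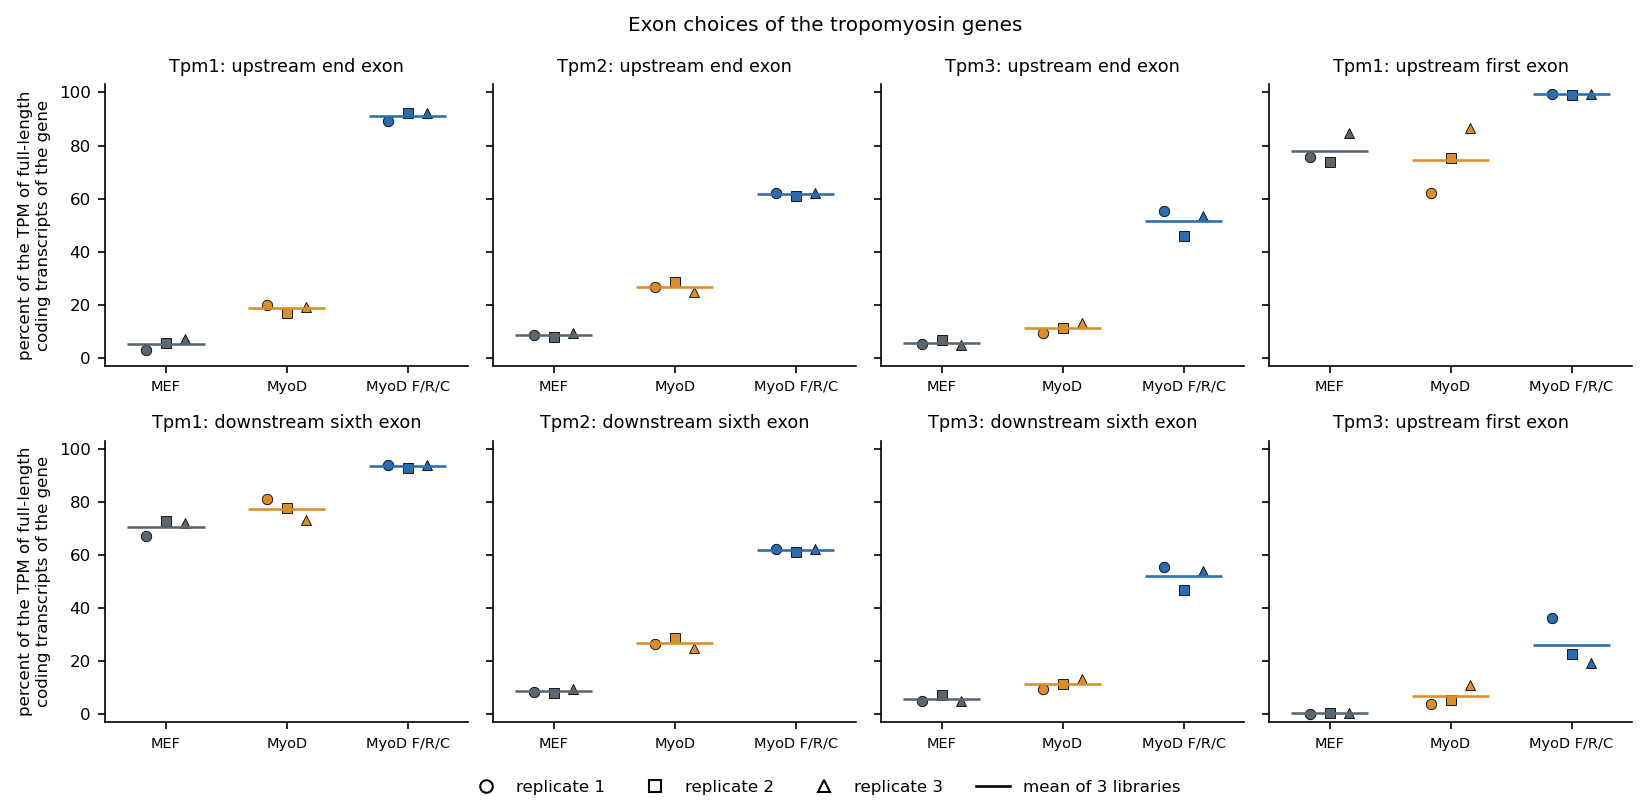
Share of chosen exons of Tpm1, Tpm2 and Tpm3 in each library, as percent of the TPM of the gene's full-length coding transcripts; symbols mark the replicate and the bar is the mean of 3 libraries. The upstream ends are lowest in MEF and highest in F/R/C without overlap, at 89.2% to 92.2% in Tpm1, 61.0% to 62.3% in Tpm2 and 45.9% to 55.2% in Tpm3.

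Transcript by transcript, 30 of the 45 models passed the filter on low counts, and 27 had a mean of at least 5 TPM in some group. Of the 30, 10 were higher and 3 lower in F/R/C than in MEF, where 11.5% of the 44724 transcripts tested were called (6.71% higher, 4.77% lower). Against MyoD, 6 were higher and 3 lower, with 7.88% of all transcripts called (4.09% higher, 3.79% lower). Between MyoD and MEF, edgeR called 0 of the 30 and 0.0112% of all transcripts, with 7 of the 30 and 3.35% of all at an unadjusted p under 0.05, and DESeq2 called 5 of the 30. In the test of a transcript's share of its gene, 7 rose and 3 fell in F/R/C against MEF, where 1.05% of 39581 transcripts were called (0.672% higher, 0.374% lower). Against MyoD, 2 rose and 3 fell, where 0.624% were called (0.336% higher, 0.288% lower). In MyoD against MEF, 2 rose and none fell, where 0.0556% were called (0.0455% higher, 0.0101% lower).

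Tpm1-205, a long model (284 residues) with the downstream sixth exon and the upstream end, carried most of the Tpm1 signal in F/R/C. It was at 15.6, 35.9 and 99.6 TPM in MEF, 111, 118 and 305 TPM in MyoD, and 2456, 2722 and 3680 TPM in F/R/C, with no overlap between the groups. Its log2 fold change was 6.26 ± 0.92 from MEF (edgeR adjusted p = 0.00589) and 4.40 ± 0.84 from MyoD (adjusted p = 0.0202), and the latter call was lost without MyoD replicate 1 (4.14, 0.0868), MyoD replicate 2 (4.07, 0.0777) or F/R/C replicate 3 (4.02, 0.0516). Its share of the gene rose against MEF (edgeR adjusted p = 0.00123) but was not called against MyoD (0.184). Tpm1-203, which has the same end and the other sixth exon, was estimated at 0 in every MEF and MyoD library and at 184, 231 and 268 TPM in F/R/C, at least 1360-fold and 1345-fold higher than a floor of 3 counts per library. Tpm1-211 (MEF 201, 236 and 251 TPM, MyoD 206, 199 and 210 TPM) and Tpm1-213 (MEF 283, 258 and 475 TPM, MyoD 100, 197 and 446 TPM) were estimated at 0 in every F/R/C library. The first is a short form (248 residues) and the second a long one with the upstream sixth exon, and both have the downstream end. Tpm1-211 and Tpm1-213 were thus at least 1304-fold and 2084-fold lower than in MEF, and at least 1183-fold and 1588-fold lower than in MyoD. The shares of these 3 transcripts passed the test in both comparisons with F/R/C, with edgeR adjusted p of at most 2.46e-08. Tpm1-215, one of the models with the smooth muscle choice of second exon, also fell in its share in F/R/C, by 2.45 against MEF (edgeR adjusted p = 0.0205) and by 2.42 against MyoD (adjusted p = 0.0348). Tpm1-206, a short form (251 residues) with neither of the Tpm1 ends printed above, was estimated at 0 in every MEF and MyoD library. Its mean in F/R/C was 10.98 CPM, called higher than in MEF and in MyoD (edgeR adjusted p = 0.00639 and 0.00917). Its share of the gene was not called in either comparison (edgeR adjusted p = 0.0558 and 0.0893). A 0 here is an estimate, since reads common to several models are divided between them by the quantifier. That uncertainty enters neither the test nor the floor of 3 counts behind the fold values. Tpm1-216, which differs from Tpm1-205 in its end, was at 118 to 180 TPM in F/R/C and 221 to 377 TPM in MEF and was not called.

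For Tpm2, the skeletal model Tpm2-202 was at 36.3, 29.8 and 59.5 TPM in MEF, 104, 135 and 214 TPM in MyoD, and 1633, 1436 and 2031 TPM in F/R/C, so that all 3 groups were apart. It rose by 5.77 ± 0.54 on the log2 scale from MEF (edgeR adjusted p = 0.00186) and by 3.89 ± 0.50 from MyoD (adjusted p = 0.00584). Tpm2-203, with the other middle and end exons, was at 394, 345 and 568 TPM in MEF, 289, 336 and 645 TPM in MyoD, and 993, 920 and 1232 TPM in F/R/C. Its rise from MEF of 1.67 ± 0.44 (edgeR adjusted p = 0.0452) was lost without any 1 of the 6 libraries (1.29 to 1.96, adjusted p 0.0605 to 0.162), as it was with counts rescaled from TPM (1.65, 0.0654). Its difference from MyoD was not called (1.66, adjusted p = 0.0558), but was with DESeq2 (1.72, 0.00425), total counts (1.48, 0.0412), a stricter filter (1.66, 0.0412) and without MyoD replicate 3 (2.23, 0.0253). The shares of Tpm2-202 and Tpm2-203 in the gene were not called in either comparison with F/R/C (against MEF, edgeR adjusted p = 0.217 and 0.155). Some facts of the annotation limit this split. The last exon of Tpm2-202 in the annotation runs for 1292 bases (chr4:43514712-43516003) and contains the downstream end, so reads from that end fit both models. The short models Tpm2-204 and Tpm2-206 also took a large part of the gene in F/R/C, at 1448, 1285 and 1857 TPM and at 1542, 1509 and 1655 TPM. In MEF they were at most at 1.18 and 9.39 TPM, and in MyoD at 16.6 to 98.7 and 37.6 to 92.9 TPM. The last exon of Tpm2-204, 160 bases at chr4:43515682-43515841, lies wholly within the last exon of Tpm2-202 and is not in Tpm2-203, and its other 59 and 118 bases are shared with both. Tpm2-206 holds a first exon of 65 bases (chr4:43523701-43523765) that neither long model holds. Both short models were called in both comparisons with F/R/C, with edgeR adjusted p of 0.00208 and 0.0120 for Tpm2-204 and of 0.00405 and 0.0207 for Tpm2-206. Against MyoD the Tpm2-204 call was lost without MyoD replicate 2 (5.01, 0.0573), and that of Tpm2-206 without MyoD replicate 1 (4.85, 0.0908), MyoD replicate 2 (4.49, 0.0817), F/R/C replicate 2 (4.92, 0.0549) or F/R/C replicate 3 (4.66, 0.0516); with counts rescaled from TPM both were lost (5.09, 0.0702, and 4.91, 0.0792). Tpm2-204 also rose in its share of the gene between MEF and MyoD (edgeR adjusted p = 0.00225).

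Of the Tpm3 models, Tpm3-201 fell and Tpm3-202, Tpm3-204 and Tpm3-205 rose in F/R/C against MEF. Tpm3-201, a short form with the downstream end, was at 300, 269 and 333 TPM in MEF, 259, 254 and 278 TPM in MyoD, and 48.3, 43.0 and 33.8 TPM in F/R/C. It fell by 2.44 ± 0.22 from MEF (edgeR adjusted p = 0.00169) and by 2.27 ± 0.22 from MyoD (adjusted p = 0.00345). Tpm3-205, the long model with the upstream end, was at 0.533, 0.775 and 0.882 TPM in MEF, 2.67, 8.04 and 13.5 TPM in MyoD, and 34.9, 11.5 and 11.4 TPM in F/R/C. It rose by 4.99 ± 0.78 from MEF (edgeR adjusted p = 0.00740), but MyoD and F/R/C overlapped. Its share of the gene rose against MEF (edgeR adjusted p = 3.56e-05) but was not called against MyoD (0.221). Tpm3-204, a long model with the downstream end, was at 0 in the 3 MEF libraries, at 8.95, 7.28 and 23.96 TPM in MyoD, and at 20.1, 11.5 and 4.49 TPM in F/R/C. Against a floor of 3 counts per library, that is at least 121-fold higher in MyoD and at least 129-fold higher in F/R/C. The floor does not cover the division of shared reads between models. The rise of its share of the gene passed the test in MyoD against MEF (edgeR adjusted p = 1.22e-08) and in F/R/C against MEF (adjusted p = 1.06e-10). The difference in its level between MyoD and MEF did not pass in the main fit (edgeR adjusted p = 0.126). It was called with DESeq2 (10.93, adjusted p = 2.4e-11) and with no filter (11.48, edgeR adjusted p = 0.0178), but not with the replicate block (11.36, 0.445). Tpm3-202, a short model with the upstream end, rose by 1.63 ± 0.24 from MEF (edgeR adjusted p = 0.00634), from 15.5 to 19.0 TPM to 32.8 to 49.5 TPM. Tpm4 was read almost entirely as Tpm4-201 in all 9 libraries, at 430 to 839 TPM in MEF, 356 to 565 TPM in MyoD and 172 to 206 TPM in F/R/C. The difference of Tpm4-201 between F/R/C and MEF was -1.26 ± 0.38 and was not called (edgeR adjusted p = 0.0665), but was with the replicate block (-1.20, adjusted p = 0.0158), DESeq2 (-1.23, 0.0192) and total counts (-1.40, 0.0216).

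The 4 leiomodin and tropomodulin genes of the list were higher in F/R/C than in either other group, while Tmod3, another cap of the pointed end, fell. Lmod2 (ENSMUSG00000029683, chr6:24597762-24605414, plus strand), known as the leiomodin of heart and skeletal muscle, was at 0, 0 and 1.94 CPM in MEF, 7.12, 8.12 and 22.6 CPM in MyoD, and 109, 153 and 180 CPM in F/R/C. Lmod3 (ENSMUSG00000044086, chr6:97238534-97252759, minus strand), a skeletal muscle leiomodin linked to nemaline myopathy, was at 0, 0.0403 and 2.26 CPM in MEF, 10.2, 9.63 and 19.8 CPM in MyoD, and 125.8, 130 and 209 CPM in F/R/C. For both genes the 3 groups were apart, and in MEF nearly all counts came from replicate 3. F/R/C exceeded MEF by 7.84 ± 1.39 for Lmod2 (edgeR adjusted p = 0.00329) and by 7.67 ± 1.30 for Lmod3 (adjusted p = 0.00273). It exceeded MyoD by 3.55 ± 1.11 for Lmod2 (edgeR adjusted p = 0.0369) and by 3.55 ± 1.05 for Lmod3 (adjusted p = 0.0300). The latter calls were lost for both genes when any 1 of MyoD replicates 1 and 2 and the 3 F/R/C libraries was left out, with changes of 3.26 to 3.73 and adjusted p of 0.0674 to 0.120 for Lmod2, and of 3.28 to 3.69 and 0.0596 to 0.102 for Lmod3. With DESeq2 the call was lost for Lmod2 (3.55, adjusted p = 0.0874) but not for Lmod3 (3.56, 0.0413). MyoD against MEF gave 4.30 ± 1.22 for Lmod2 (edgeR adjusted p = 0.582) and 4.11 ± 1.14 for Lmod3 (adjusted p = 0.550), and without MEF replicate 3, which left 0 or 1 count for each in MEF, both were called (adjusted p = 0.00742 and 0.00245). Per length, Lmod2 and Lmod3 lay close to each other, with Lmod2 at 0.807 to 1.30 times in MyoD and 0.976 to 1.35 times the level of Lmod3 in F/R/C.

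Tmod1 (ENSMUSG00000028328, chr4:46038935-46116032, plus strand), the tropomodulin of striated muscle and red blood cells, was at 3.12, 1.89 and 2.81 CPM in MEF, 13.3, 9.71 and 23.0 CPM in MyoD, and 230, 231 and 308 CPM in F/R/C. MEF replicate 3 did not stand apart in this gene, and no groups overlapped. F/R/C exceeded MEF by 6.62 ± 0.41 (edgeR adjusted p = 0.000177) and MyoD by 4.06 ± 0.36 (adjusted p = 0.000488). MyoD against MEF gave 2.56 ± 0.35 and missed the threshold (edgeR adjusted p = 0.0970), but passed it with the replicate block (2.50, adjusted p = 0.0451), with DESeq2 (2.59, adjusted p = 1.12e-07) and without MEF replicate 3 (2.64, adjusted p = 0.0268). Tmod4 (ENSMUSG00000005628, chr3:95124476-95129209, plus strand), a tropomodulin of skeletal muscle, rested on far fewer reads, with 2, 6 and 12 counts in MEF, 15, 15 and 16 in MyoD, and 454, 526 and 486 in F/R/C. As levels these were 0.0930, 0.242 and 0.554 CPM, then 0.671, 0.566 and 0.770 CPM, then 19.1, 23.98 and 23.3 CPM. MyoD replicate 2 lay just above MEF replicate 3, and F/R/C far above both groups. Tmod4 rose by 6.20 ± 0.56 from MEF (edgeR adjusted p = 0.000299) and by 5.04 ± 0.52 from MyoD (adjusted p = 0.000659), and gave 1.16 ± 0.51 for MyoD against MEF (adjusted p = 1.0).

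Tmod3, the tropomodulin of most tissues, was the main one in MEF and MyoD but not in F/R/C. It made up 92.6% to 94.3% of the TPM of the 4 tropomodulins in MEF, 77.8% to 89.0% in MyoD and 11.3% to 18.3% in F/R/C. Tmod1 made up 2.13% to 4.16% in MEF, 7.003% to 19.4% in MyoD and 67.5% to 70.5% in F/R/C. Tmod4 made up 13.3% to 17.5% in F/R/C and at most 1.81% in any other library. Tmod3 fell by 1.15 from MEF (edgeR adjusted p = 0.00400) and by 1.07 from MyoD (adjusted p = 0.00685). Tmod2, found mainly in neurons, and Lmod1, the smooth muscle leiomodin, were not called in any of the comparisons.

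**Figure D4:**
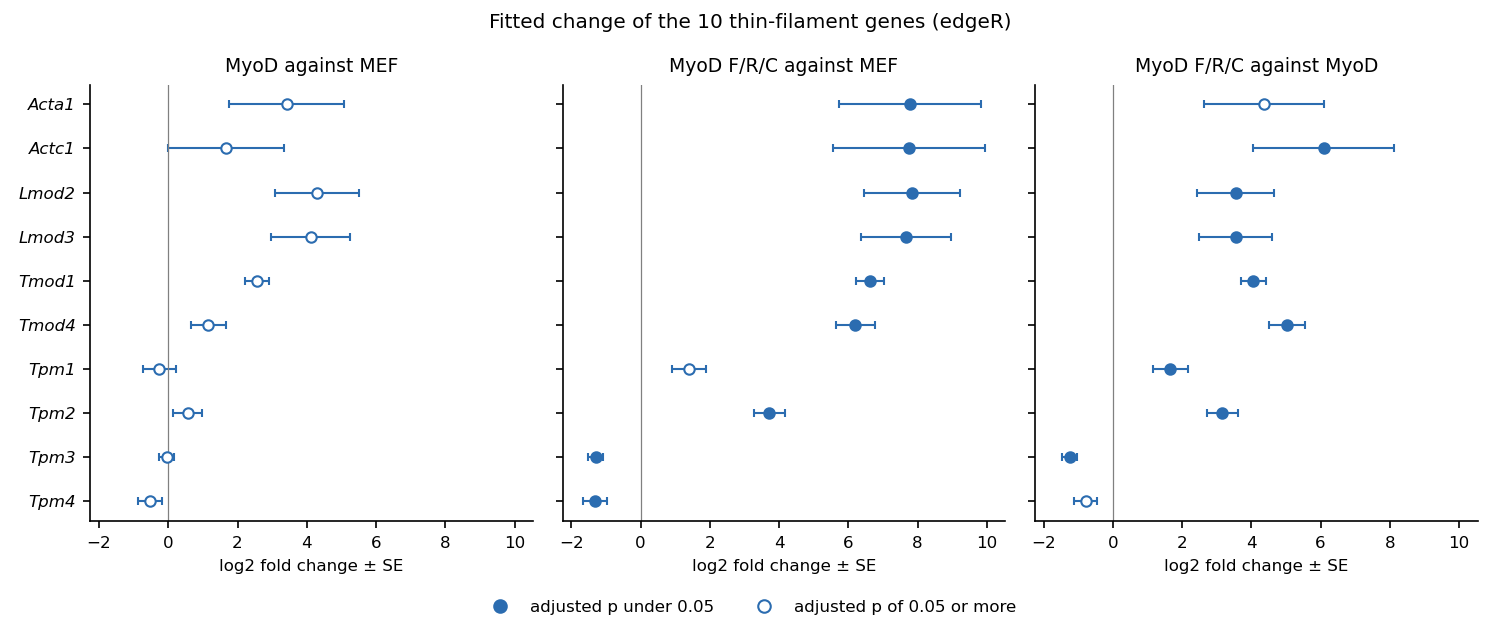
Fitted log2 fold change of the 10 genes with its standard error in each of the 3 comparisons; filled points have an adjusted p under 0.05. The bars of Acta1 and Actc1 are the widest, and no point is filled for MyoD against MEF.

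Other genes of the filament were read from lists of the pathway. Of 16 genes for the assembly, length and stability of muscle thin filaments, 9 were higher and 1 lower in F/R/C than in MEF, and 6 were higher and 1 lower than in MyoD, with medians of 4.37 and 2.02 on the log2 scale. Over all genes tested, 37.6% and 33.9% were called in these comparisons, and the medians were -0.04 and -0.02. Between MyoD and MEF, where the list's median was 1.62 and that of all genes -0.01, edgeR called 0 of the 16, with 7 at an unadjusted p under 0.05 (4.66% of all genes), and DESeq2 called 3 (1.09% of all genes). Cfl2, the muscle cofilin that severs and depolymerises actin, was at 68.5, 68.1 and 140 CPM in MEF, 78.4, 90.1 and 191 CPM in MyoD, and 462, 538 and 727 CPM in F/R/C, which was above all others. It rose by 2.64 from MEF (edgeR adjusted p = 0.00262) and by 2.26 from MyoD (adjusted p = 0.00590). Klhl41, a Kelch protein that stabilises sarcomeric proteins, was at 1.53, 0.604 and 11.9 CPM in MEF, 24.5, 27.9 and 68.0 CPM in MyoD, and 512, 674 and 814 CPM in F/R/C. It rose by 7.16 and 4.05 (edgeR adjusted p = 0.00227 and 0.0148), and Myot, a Z-disc protein that binds actin, by 7.27 and 4.36 (adjusted p = 0.00276 and 0.0145). Cald1, the caldesmon of smooth muscle and non-muscle filaments, fell by 2.27 and by 2.19 (edgeR adjusted p = 0.00917 and 0.0121). The barbed-end capping protein genes Capza1, Capza2 and Capzb were not called in any of the comparisons.

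Of 10 genes of general actin turnover, 3 were higher and 4 lower in F/R/C than in MEF, and 1 was higher and 5 lower than in MyoD. Over all genes, 19.5% were called higher and 18.1% lower in the first comparison, and 17.8% and 16.1% in the second. The medians of the 10 were -0.88 and -0.82, beside -0.04 and -0.02 over all genes. Twf1, a twinfilin that binds actin monomers, fell by 1.15 from MEF and 1.08 from MyoD (edgeR adjusted p = 0.00176 and 0.00303). Gsn, the severing protein gelsolin, fell by 1.46 in both comparisons (edgeR adjusted p = 0.00247 and 0.00321), and the formin Fhod1 by 1.20 and 1.39 (adjusted p = 0.00707 and 0.00492). The formin Daam1 rose by 0.81 and 0.97 (edgeR adjusted p = 0.0320 and 0.0174).

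The genes whose levels followed a member most closely over the 9 libraries were found by the root mean square difference of their centred log2 levels, a description with no test, in which all points share libraries and depth. For Acta1 these were Atp2a1 (0.244), Tnni1 (0.399), Myl1 (0.403), Tnnc2 (0.457) and Myom2 (0.509), where the median over 10214 genes was 5.01. For Actc1 they were Myh3 (0.657), Myog (0.732), Tnni1 (0.820), Myh8 (0.856) and Actn2 (0.891), with a median of 5.18. For Lmod2 they were Smpx (0.199), Hfe2 (0.253), Lmod3 (0.256), Cacng1 (0.262) and Sypl2 (0.262), with a median of 4.02, so the other leiomodin of the list was among its nearest 5 genes.

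Some members overlap other genes, whose reads could be mixed with theirs if strand was not used in counting, on which the sources used here are silent. Gm20388, on the opposite strand over Acta1, was at 140 to 301 CPM in the 9 libraries, and Tstd2, over Tmod1, was at 30.7 to 39.8 CPM. The gene over Actc1 reached at most 1.54 CPM.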

How the data were processed

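The 9 libraries (3 MEF, 3 MyoD, 3 F/R/C) are TruSeq Stranded mRNA libraries by the labels' protocols. The tools named are bcl2fastq 2.19, Trimmomatic 0.36, kallisto 0.44 and edgeR 3.28, and the build GRCm38.p6, per the submitters' processing notes. Not given in the sources used here are their options, the annotation release and the use of strand. The authors' deposited tables, 1 per library, hold estimated counts and TPM for 121843 transcripts per library. For this report the IDs were joined to GENCODE M21 (GRCm38), where 121104 matched and 739 did not, the latter holding 0.20% to 0.494% of the counts.

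Estimated counts were summed per gene and rounded. The test was run in R 4.3.3 with edgeR 4.0.16 and limma 3.58.1: filterByExpr (at least 10 counts, 15 in total), TMM scaling, 1 quasi-likelihood fit of all 9 libraries, 3 comparisons, Benjamini-Hochberg adjustment over all features and a threshold of 0.05. Transcripts were tested likewise, and shares of a gene with diffSpliceDGE. The standard error is the log2 fold change over the root of F, approximate near 0 counts. Promoters are from RefSeq. The scripts were tested on simulated counts. DESeq2 1.42.0 and other settings are alternatives.

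Shares of exons and of families came from deposited TPM, with an exact two-sided permutation test, whose smallest p for 3 against 3 is 0.1. Likeness used genes with a mean log2 CPM of at least 3.

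The members and gene lists were chosen with earlier results of these data known. All 10 members are named whatever their values. Only transcripts with a mean of at least 5 TPM in a group are named, and not all of these 27 are. Up to 4 genes per list are named by the smallest adjusted p against MyoD in the direction of most, and 1 in the other direction. Actb, Actg1, Acta2, Actg2, Tmod2, Tmod3, Lmod1, Srf, Mrtfb, Myocd and the capping protein genes are named as relatives, whatever their values. The labels' replicate numbers were checked for pairing: deviations from the group means correlated between same-numbered MEF and MyoD libraries at 0.632 to 0.729. The values were 0.101 to 0.151 between MEF and F/R/C, and 0.0837 to 0.164 between MyoD and F/R/C. Differently numbered libraries correlated at most at 0.0553, 0.00939 and 0.0447 in these comparisons. Same-numbered libraries were thus the more alike in each, strongly for MEF with MyoD and only weakly for either with F/R/C. No pair of libraries agreed within sampling noise.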

Additional observations from a re-analysis of the deposited data

How the results depend on the processing

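With 1 library left out, the test called 4372 to 5375 genes for F/R/C against MEF (5916 with all) and 3620 to 5270 for F/R/C against MyoD (5327 with all). For MyoD against MEF, with 0 genes called, it called 0 to 161, the highest without MEF replicate 3, and 199 without MEF replicate 3 and MyoD replicate 3, a choice made after seeing the data. DESeq2 called 171 there, no filter on low counts 11 and the replicate block 13. Of the members, 0 to 5 were called there when 1 library was left out, 5 without both of those libraries, and 1 each with DESeq2, no filter and the block. Of the tropomyosin transcripts, 5 were called with DESeq2, 1 with no filter and 1 without both of those libraries, and 1 to 2 shares when 1 library was left out (2 with all libraries, 3 without both of those libraries). For F/R/C against MyoD, 4 to 7 members were called with 1 library left out (8 with all) and 9 without both of those libraries, and 3 to 4 changed shares (5 with all, 7 without both of those libraries). Counted in estimated counts in place of TPM, the upstream end made up 14.2% (MyoD) and 88.6% (F/R/C) of Tpm1, 17.1% (MEF), 44.2% (MyoD) and 78.3% (F/R/C) of Tpm2, and 46.2% (F/R/C) of Tpm3.

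The following changes of sign were each in a difference that was not called. For MyoD against MEF, Tpm1 gave 0.14 without MEF replicate 3 and 0.05 without MyoD replicate 1, in a range from -0.87 to 0.14 over the left-out libraries; Tpm3 gave 0.05 with total counts, 0.06 without MEF replicate 3, 0.0 without MyoD replicate 1 and 0.08 without MyoD replicate 2 (range -0.18 to 0.08). Tpm1-213 gave 0.01 without MEF replicate 3 (range -1.31 to 0.01), and Tpm1-215 gave 0.79 without it and 0.26 without MyoD replicate 1 (range -1.49 to 0.79). Tpm2-203, at 0.0 with all libraries, had no direction to keep and ranged from -0.57 to 0.31. For F/R/C against MyoD, Tpm3-204 gave -0.01 with total counts, -0.15 without MyoD replicate 1, -0.31 without MyoD replicate 2 and -0.37 without F/R/C replicate 1 (range -0.37 to 0.95). The cause was not tested.

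In the check of pairing, same-numbered MyoD and F/R/C libraries correlated only weakly, at 0.0837 to 0.164. The replicate block changed these calls for F/R/C against MyoD: Acta1 (4.71, edgeR adjusted p = 0.0400), Tpm4 (-0.75, 0.0199), Tpm2-203 (1.75, 0.00936) and Tpm1-206 (0.0592). Besides Tmod1, Tpm1 and Tpm4-201, given with their results, it changed no other call among the members and the described transcripts. Depth limits Tmod4 and, in MEF, Lmod2 and Lmod3, with at most 12 counts for Tmod4 there.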
